A study of Mus musculus with 18 samples.

Results

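Wee1, Usp2, Nampt, Tspan4, Dtx4, Lonrf3 and Leo1 are genes whose RNA is known to rise and fall over the day but that are not parts of the clock itself. These 7 genes were followed here in mouse lung after repeated oral doses of polycyclic aromatic hydrocarbons (PAHs). They were found on the array through the RefSeq accession of each probe, which gave 8 probes for the 7 genes among 55681 probes and 20660 named genes. Lonrf3 had 2 probes, and each other member had 1. The question addressed was whether a change in the clock genes of the lung is accompanied by a change in genes that the clock drives.

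Lung RNA came from 18 male MutaTMMouse animals, a transgenic strain that carries a bacterial reporter gene for mutations, aged about 12 weeks, housed singly under a light/dark cycle. All mice were gavaged daily for 28 days, and tissue was taken 72 h after the last dose. The vehicle group (n = 5) received olive oil alone. The low (n = 4), medium (n = 5) and high (n = 4) groups received the 4PAH-Mix, made of BaP, BaA, BbF and CHR, in olive oil, at a daily dose per kg body weight of 12.5, 25 and 50 mg, counted as BaP equivalents. All groups thus shared the daily gavage and the oil. RNA was taken from whole lung sections, while the study's methods name the right lobe of the lung as the part collected. The time of day at which the lungs were collected, and whether it was matched between groups, is not given in the sources used here. Each mouse was measured on 1 two-colour array, with lung RNA in Cy5 and a common reference RNA pooled from 11 mouse cell lines in Cy3. Values below are log2 ratios of lung over reference RNA, so a value of 0 means equal signal and a difference of 1 means 2-fold. A gene was called at a dose when limma's adjusted p was 0.05 or less and the fold change over vehicle was at least 1.5.

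The circadian clock of mammalian cells is a feedback loop in which the activators Clock and Arntl (Bmal1) switch on Per, Cry and Nr1d genes, whose products then hold the activators back. The activators bind E-box sequences, the PAR bZIP factors Dbp, Tef and Hlf bind D-boxes, and the Nr1d receptors bind an element of their own, so that output genes peak at different times of day. Wee1, a kinase that delays entry into mitosis, Nampt, the rate-limiting enzyme of NAD salvage, and Usp2, a deubiquitinase, are well-known outputs of this loop.

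Median Cy5 signals ran from 110 to 142 and Cy3 signals from 75 to 89 over the arrays, between 51.5% and 61.1% of probes were well above background, and the lowest correlation between any 2 arrays was 0.94. On each slide, median Cy5 was higher in high-dose than in vehicle arrays. It was 131 and 129 against 116.5 and 118 on slide 1, 121 against 110 and 116 on slide 2, and 142 against 131.5 on slide 3. The part of this difference in the calls was not tested. All 8 lung cell markers were well above background on all 18 arrays. The 3 slides each held all 4 groups, while the column on the slide followed the dose group, so that column and dose cannot be told apart. The number of mice per group limits the precision, and the smallest p that the exact permutation test can give for 5 against 4 or 5 mice was 0.00794. The 7 member probes of Wee1, Usp2, Nampt, Tspan4, Dtx4 and Lonrf3 were well above background on all 18 arrays, and that of Leo1 on 10.

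Sequence before the start site was at hand in RefSeq's promoter table (GRCm38.p6) for 5 of the 7 members, in 6 windows of 250 bases each, the Tspan4 table holding 2 start sites. The windows were searched on both strands for the E-box CACGTG, the E′-box CACGTT, the D-box TTATGTAA or TTATGCAA, the receptor element TAGGTCA, and GCGTG, the core that the aryl hydrocarbon receptor (AHR) recognises; none of these strings holds another of them whole. The 3 windows that held a clock motif are shown, with the motif in capitals, so that the place of the motif can be seen. Tspan4 at its second start site (chr7:141476130-141476379, plus strand) held an E-box from -51 to -46, Lonrf3 (chrX:36328159-36328408, plus strand) an E-box from -45 to -40, and Leo1 (chr9:75441274-75441523, plus strand) the receptor element from -63 to -57, with positions counted from the start site.
Tspan4: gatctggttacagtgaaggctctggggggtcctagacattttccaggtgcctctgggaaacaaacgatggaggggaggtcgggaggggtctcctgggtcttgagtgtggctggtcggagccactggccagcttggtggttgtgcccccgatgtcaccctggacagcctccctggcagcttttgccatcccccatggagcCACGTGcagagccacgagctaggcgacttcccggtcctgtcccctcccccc
Lonrf3: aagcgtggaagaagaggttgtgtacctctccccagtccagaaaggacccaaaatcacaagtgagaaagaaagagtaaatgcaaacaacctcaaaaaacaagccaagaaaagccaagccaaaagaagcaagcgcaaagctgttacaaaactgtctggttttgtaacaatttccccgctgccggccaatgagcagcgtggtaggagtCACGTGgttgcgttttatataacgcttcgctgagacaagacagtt
Leo1: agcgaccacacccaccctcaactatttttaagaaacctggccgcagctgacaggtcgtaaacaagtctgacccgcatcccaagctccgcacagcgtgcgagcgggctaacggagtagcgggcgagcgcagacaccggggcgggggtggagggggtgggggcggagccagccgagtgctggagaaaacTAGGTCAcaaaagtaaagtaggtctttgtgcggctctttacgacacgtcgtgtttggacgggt
Of 32851 windows in the table, 6.02% held the E-box, 3.85% the E′-box, 1.5% the D-box, 2.23% the receptor element and 28.2% the AHR core. The windows of Usp2, of Nampt and of the first Tspan4 start site held none of the 4 clock motifs. They held the AHR core 2, 5 and 1 times, Lonrf3 held it 2 times, Leo1 1 time and the second Tspan4 window not at all.

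The members did not respond alike. Tspan4 rose at all 3 doses, Wee1 at the medium and the high dose, and Usp2 at the high dose only among the 3 tests, while Dtx4 fell at the high dose. Lonrf3 had lower values at each dose that stayed under the fold limit, and neither Nampt nor Leo1 was called at any dose. The number of members called was thus 1 of 7 at the low dose, 2 for the medium and 4 for the high dose, 3 of these higher and 1 lower. The shares of all probes called higher and called lower were 0.0647% and 0.0251% for the low dose, 0.278% and 0.447% for the medium dose, and 0.399% and 0.805% for the high dose. The median log2 fold change of the members at the high dose was 0.08, beside 0.00 over all probes, and 4 of the 7 were above 0. Values of the dosed and the vehicle mice did not overlap for 2 members at the low dose (Wee1, Tspan4), 3 for the medium dose (with Lonrf3) and 5 for the high dose (with Usp2 and Dtx4), beside 2.81%, 4.36% and 8.11% of all probes. With arrays centred on their median in place of loess, 0 members were called by limma at any dose (2, 2 and 3 at an unadjusted p under 0.05, beside 2.31%, 4.95% and 6.44% of all probes), although the 4 high-dose values kept their direction (Wee1 1.03, Usp2 0.81, Tspan4 1.38, Dtx4 -0.39).

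**Figure D1:**
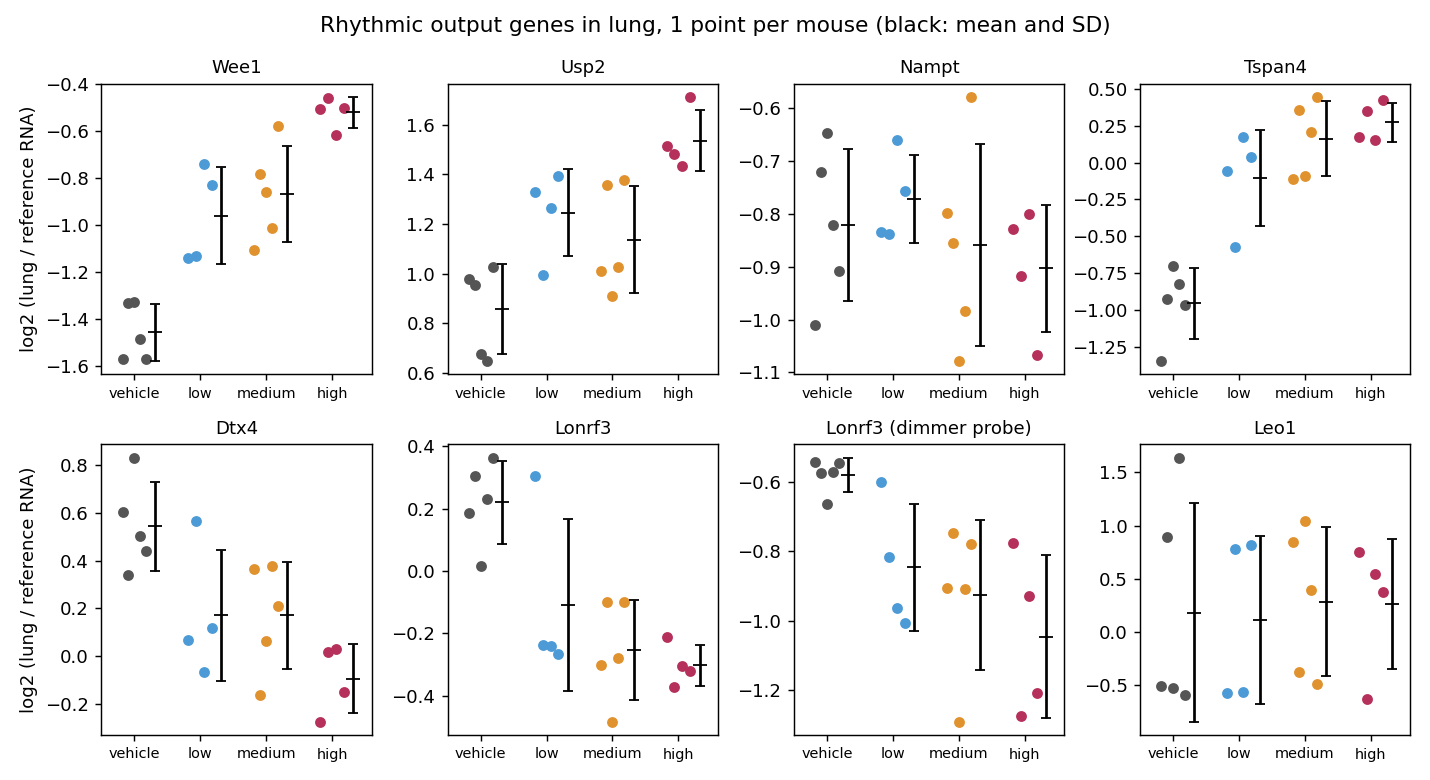
Log2 ratio of lung over reference RNA for each member probe (vertical axis) in the 4 dose groups, 1 point per mouse, with the group mean and SD in black. Wee1 and Tspan4 lay above every vehicle mouse at all 3 doses, and Leo1 fell into 2 separate sets of mice within each group. Each panel has its own vertical scale.

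Tspan4 encodes a tetraspanin, a membrane protein with 4 passes found on cell surfaces and migrating cells' vesicles. Its log2 ratios were -1.35, -0.93, -0.70, -0.83 and -0.97 in the vehicle mice. They were -0.06, -0.57, 0.17 and 0.04 at the low dose, -0.11, 0.36, -0.09, 0.21 and 0.45 in medium-dose mice, and 0.17, 0.35, 0.16 and 0.42 in high-dose mice. Every dosed mouse lay above every vehicle mouse, and the low-dose mouse at -0.57 lay nearest to them. Group means were -0.95 ± 0.24 (SD, n = 5), -0.10 ± 0.33 (n = 4), 0.16 ± 0.26 (n = 5) and 0.28 ± 0.13 (n = 4). Set against vehicle, Tspan4 was higher by 0.85 log2 units in the low group (SE 0.15, adjusted p = 0.0149), 1.12 at the medium dose (SE 0.14, adjusted p = 9.42e-05) and 1.23 at the high dose (SE 0.15, adjusted p = 3.52e-05), which is 1.80-, 2.17- and 2.35-fold. It was the only member called at the low dose, and there the call rested on few mice. Without low-dose mouse 6, 9 or 10, the log2 fold change was 0.83, 0.76 or 0.80 and the adjusted p 0.0558, 0.0832 or 0.0835. Fitted without the other groups, the low dose gave an adjusted p of 0.0503, and the scanner software's ratios gave 0.0662. Within the 3 slides, the high-dose difference ran from 0.92 to 1.40.

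Wee1 encodes the kinase that places an inhibitory phosphate on Cdk1 and so holds cells before mitosis. Vehicle mice had log2 ratios of -1.57, -1.33, -1.33, -1.48 and -1.57. The low-dose mice had -1.14, -1.13, -0.74 and -0.83, the medium-dose mice -1.11, -0.78, -0.86, -1.01 and -0.58, and the high-dose mice -0.50, -0.46, -0.61 and -0.50. The group means rose with dose, with no overlap between vehicle and any dose or between the low and the high dose. The medium-dose mice overlapped with both the low- and the high-dose mice, and their mean lay only 0.09 above the low-dose mean (SE 0.11). The means were -1.46 ± 0.12 (SD, n = 5), -0.96 ± 0.21 (n = 4), -0.87 ± 0.21 (n = 5) and -0.52 ± 0.07 (n = 4). At the high dose the rise was 0.94 on the log2 scale (SE 0.11, 1.92-fold, adjusted p = 1.75e-05), and at the medium dose it was 0.59 (SE 0.10, adjusted p = 0.00156), just past the fold limit of 0.585 on that scale. The low-dose difference of 0.50 (SE 0.11, 1.41-fold) had an adjusted p of 0.0565 and was not called, although its exact permutation p was 0.00794, the smallest possible. Leaving out vehicle mouse 1, 4 or 5 or medium-dose mouse 12 or 15 took the medium-dose value under the fold limit (0.56, 0.58, 0.56, 0.57 and 0.52) with adjusted p of at most 0.00650. Within slides, the high-dose difference ran from 0.79 to 1.07.

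Usp2 encodes a ubiquitin-specific protease that removes ubiquitin from, among others, clock proteins. Its log2 ratios were 0.98, 0.95, 0.68, 0.65 and 1.03 in the vehicle mice and 1.33, 1.00, 1.26 and 1.39 at the low dose. At the medium dose they were 1.01, 1.36, 0.91, 1.03 and 1.38, and at the high dose 1.52, 1.48, 1.43 and 1.71. The high-dose mice lay above all others, while the low- and medium-dose mice overlapped with vehicle. The means were 0.86 ± 0.18 (SD, n = 5), 1.24 ± 0.17 (n = 4), 1.14 ± 0.22 (n = 5) and 1.54 ± 0.12 (n = 4). The log2 fold change at the high dose was 0.68 (SE 0.11, 1.60-fold, adjusted p = 0.00102). It was 0.39 at the low dose (SE 0.11, adjusted p = 0.252) and 0.28 at the medium dose (SE 0.11, adjusted p = 0.18), so the middle dose did not lie between its neighbours. Within slides, the high-dose difference ran from 0.53 to 0.77.

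Dtx4 encodes a Deltex-family E3 ubiquitin ligase linked to Notch signalling. Vehicle mice had log2 ratios of 0.60, 0.34, 0.83, 0.50 and 0.44. The low-dose mice had 0.07, 0.57, -0.07 and 0.12, the medium-dose mice 0.36, -0.16, 0.06, 0.38 and 0.21, and the high-dose mice -0.28, 0.02, 0.03 and -0.15. Only the high-dose group lay wholly below the vehicle mice. The means were 0.54 ± 0.19 (SD, n = 5), 0.17 ± 0.28 (n = 4), 0.17 ± 0.23 (n = 5) and -0.09 ± 0.15 (n = 4). The log2 fold change was -0.64 at the high dose (SE 0.13, 1.56-fold lower, adjusted p = 0.00563), and -0.37 at both other doses (adjusted p = 0.388 and 0.103). Without vehicle mouse 3 or high-dose mouse 16, the high-dose value was -0.57 or -0.58, under the fold limit, with adjusted p of 0.0174 and 0.0317. Within slides it ran from -0.64 to -0.59.

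Lonrf3 encodes a protein with a RING finger and a LON domain, a pairing found in E3 ubiquitin ligases. On its brighter probe, log2 ratios were 0.18, 0.31, 0.01, 0.23 and 0.36 in the vehicle mice and 0.30, -0.24, -0.24 and -0.26 at the low dose. They were -0.30, -0.10, -0.48, -0.28 and -0.10 in medium-dose mice and -0.21, -0.37, -0.31 and -0.32 in high-dose mice. All medium- and high-dose mice lay below all vehicle mice, and 1 low-dose mouse at 0.30 lay among the vehicle mice. The log2 fold change was -0.33 (SE 0.11, adjusted p = 0.358), -0.47 (SE 0.10, adjusted p = 0.0123) and -0.52 (SE 0.11, adjusted p = 0.00723) from low to high dose. The last of these is 1.44-fold lower, so Lonrf3 passed the p limit at 2 doses but the fold limit at none. The dimmer probe had group means of -0.58 ± 0.05 (SD, n = 5), -0.85 ± 0.18 (n = 4), -0.93 ± 0.22 (n = 5) and -1.05 ± 0.23 (n = 4). Its log2 fold change at the high dose was -0.47 (SE 0.11, adjusted p = 0.0211), and it too had no overlap with vehicle at the medium and the high dose.

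Nampt encodes the enzyme that makes nicotinamide mononucleotide, the precursor of NAD. Its log2 ratios lay between -1.01 and -0.65 in the vehicle mice, between -0.84 and -0.66 at the low dose, between -1.08 and -0.58 in the medium group and between -1.07 and -0.80 at the high dose. All groups overlapped. The log2 fold changes were 0.05, -0.04 and -0.08 from low to high dose, with 95% confidence intervals of -0.15 to 0.25, -0.23 to 0.15 and -0.28 to 0.12, so that a change of 1.5-fold lay outside each interval. The adjusted p was 0.949, 0.919 and 0.777.

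**Figure D2:**
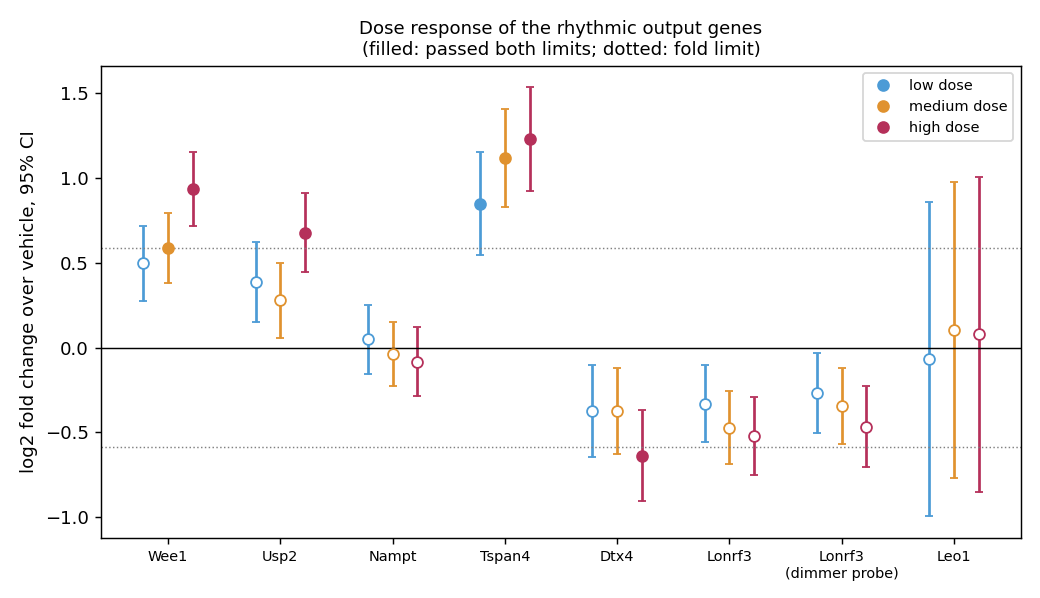
Log2 fold change over vehicle (vertical axis) with its 95% confidence interval for each member probe at the low, medium and high dose. Filled points passed both limits, and dotted lines mark the fold limit of 0.585 on the log2 scale. Tspan4 and Wee1 had the highest values at the high dose (1.23 and 0.94), the intervals of Nampt stayed inside the fold limit, and those of Leo1 crossed both dotted lines.

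Leo1 encodes a subunit of the PAF1 complex, which travels with RNA polymerase II. Its log2 ratios were -0.50, 0.90, -0.52, 1.64 and -0.59 in the vehicle mice and -0.57, 0.78, -0.56 and 0.82 at the low dose. They were 0.85, -0.38, 1.05, 0.40 and -0.49 in medium-dose mice and 0.75, -0.63, 0.54 and 0.38 in high-dose mice. Each group held mice on both sides of an empty range of 0.75 log2 units between -0.38 and 0.38. There were 10 mice above it, 2 of 5 vehicle, 2 of 4 low-dose, 3 of 5 medium-dose and 3 of 4 high-dose mice, and these 10 were the arrays on which the probe was well above background. The 3 slides held 4 of 8, 4 of 6 and 2 of 4 such mice. Group SDs were 0.61 to 1.02, and the high-dose log2 fold change of 0.08 had an SE of 0.45 and a 95% interval of -0.85 to 1.00. A dose difference of 1.5-fold in Leo1 was therefore not detectable with these arrays.

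No member passed both limits between any 2 doses. By limma, 0 of 7 members were called for high against low, high against medium or medium against low, beside 0.0449%, 0% and 0% of all probes. At an unadjusted p under 0.05, 3 members (Wee1, Usp2, Tspan4) were past the limit for high against low, 2 (Wee1, Usp2) for high against medium and 0 for medium against low, beside 6.71%, 3.74% and 4.96% of all probes. From the low to the high dose, the log2 difference was 0.44 for Wee1 (SE 0.11, adjusted p = 0.282), 0.29 for Usp2 (SE 0.12, adjusted p = 0.657) and 0.38 for Tspan4 (SE 0.16, adjusted p = 0.655). High-dose values of Wee1 and Usp2 lay wholly above the low-dose values (exact permutation p = 0.0286 for each, the smallest that 4 against 4 mice allow). The mean of Tspan4 was 0.16 in medium-dose and 0.28 in high-dose mice, a difference of 0.11 (95% interval -0.19 to 0.42).

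The clock genes themselves were measured on the same arrays. Of 13 repressors and PAR bZIP factors, the low dose raised 4 past both limits (Dbp, Nr1d2, Per3, Tef), the medium dose 7 (these with Nr1d1, Per1, Per2) and the high dose 7 (Dbp, Hlf, Nr1d1, Nr1d2, Per2, Per3, Tef), none lower, and all 13 had positive log2 fold changes at each dose, except that Cry1, which was not well above background on any array, turned negative at the low and the medium dose with the scanner software's ratios. Their median log2 fold change was 0.70, 0.84 and 0.69. Arntl and Nfil3, a repressor of D-box genes, were called lower at all 3 doses. Dbp, a D-box activator, had log2 fold changes of 1.81, 2.17 and 2.22, and Arntl of -1.04, -1.37 and -1.59. For both genes every dosed mouse lay beyond every vehicle mouse at all 3 doses.

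Of 10 other rhythmic output genes, 1 was called at the low dose and 2 at the medium and the high dose, all higher, with median log2 fold changes of 0.20, 0.10 and 0.19, which under the other scalings reached up to 0.32, 0.27 and 0.42. They were Cdkn1a, a cell cycle inhibitor that is also a p53 target, at all 3 doses (1.39, 2.09 and 2.47), and Lpin1, a phosphatidate phosphatase, at the medium and the high dose (0.67 and 0.62). Cirbp, a cold-inducible RNA-binding protein, was at 0.55 at the high dose (SE 0.16, adjusted p = 0.0525). The other 7, Alas1, Insig2, Klf9, Klf10, Noct, Por and Tsc22d3, lay between -0.13 and 0.30 at the medium and the high dose.

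Whether a mouse's output genes followed its own clock was examined over the 18 mice after each value had its group mean taken away, so that differences between group means played no part. The p-values are from permutation within groups and were adjusted over 14 pairs of a member with Dbp or Arntl. With the loess values used here and without regard to slide, none passed an adjusted p of 0.05. Some other scalings gave pairs past that limit, as counted in the last section. The members nearest to the limit were Wee1, Tspan4 and Dtx4. Against Dbp, Pearson's r was 0.58 for Wee1 (p = 0.0203, Spearman's rho 0.53, p = 0.0575), 0.62 for Tspan4 (p = 0.0168, rho 0.43, p = 0.114) and -0.67 for Dtx4 (p = 0.00573, rho -0.69, p = 0.00497), each with an adjusted p of 0.0704 for r. Without the 2 mice farthest from the median in Dbp before group means were taken away (vehicle mice 1 and 3), r was 0.80, 0.70 and -0.71. Against Arntl, r was -0.58 for Wee1 (p = 0.0377, rho -0.55, p = 0.0420, adjusted p for r 0.0880), -0.69 for Tspan4 (p = 0.0135, rho -0.62, p = 0.0176, adjusted p for r 0.0704) and 0.62 for Dtx4 (p = 0.0251, rho 0.62, p = 0.0180, adjusted p for r 0.0704). Without the 2 mice farthest in Arntl, picked in the same way (vehicle mice 1 and 5), r was -0.52, -0.60 and 0.73. The mice left out were picked on values that still held the dose shift. These repeats therefore do not show how far single mice drive the within-group r. With slide means also taken away, r with Dbp was 0.52, 0.55 and -0.73, and r with Arntl was -0.63, -0.74 and 0.80. In that fit 3 pairs passed: Tspan4 with Arntl (adjusted permutation p = 0.0127) and Dtx4 with Dbp and with Arntl (adjusted permutation p = 0.00539 for each). Mice were still shuffled within groups across slides there, so these p-values are approximate and may be too small. With median centring in place of loess, r with Arntl turned positive for Wee1 (0.45) and Tspan4 (0.39), as did r of Dtx4 with Dbp (0.45). With loess the signs were those of the dose response: Wee1 and Tspan4 ran with Dbp and against Arntl, and Dtx4 ran the other way. Usp2, Nampt and Lonrf3 had r between -0.22 and 0.23 with either clock gene, and no r is given for Leo1, whose mice formed 2 sets.

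**Figure D3:**
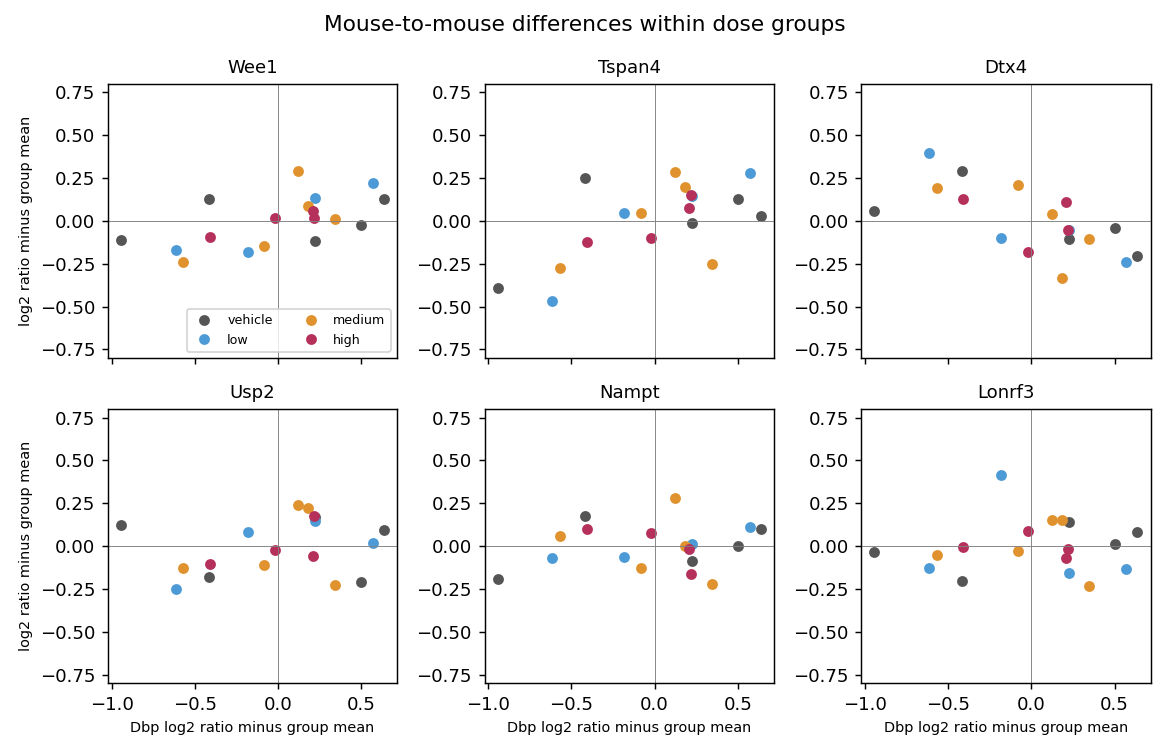
Log2 ratio of 6 members (vertical axis) against that of Dbp (horizontal axis), each with its group mean taken away, 1 point per mouse coloured by group. Over the 18 mice, r was 0.58 for Wee1, 0.62 for Tspan4 and -0.67 for Dtx4, and between 0.07 and 0.23 for Usp2, Nampt and Lonrf3.

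The genes whose values were most like each member over the 18 mice were taken from 13435 other named genes well above background on all arrays, as a description in which dose and shared arrays both take part. Mthfd1l, a mitochondrial enzyme of one-carbon metabolism, came first for Tspan4 (r = 0.97, and 0.88 within groups) and for Wee1 (r = 0.94, and 0.72 within groups). Wee1 was next most like Tspan4 itself (r = 0.92, and 0.71 within groups) and Rb1, the retinoblastoma protein gene (r = 0.90, and 0.52 within groups). Tspan4 was next most like Dbp and Nr1d2 (r = 0.93 for each, and 0.62 and 0.60 within groups). Usp2 was most like Slc46a3, a lysosomal transporter (r = 0.90, and 0.84 within groups), and Neu2 had r = 0.85 (0.75 within groups). Dtx4 was most like Spon2 (r = 0.89), Nrcam (r = 0.85) and Sdccag8 (r = 0.85), with 0.76, 0.64 and 0.71 within groups. Lonrf3 was most like Cachd1 (r = 0.88), Cldnd1 (r = 0.87) and Rbm14 (r = 0.87), with 0.75, 0.61 and 0.62 within groups. For Nampt the leading genes were BC048507 (r = 0.82), Cct5 (r = 0.77) and Aldh1l2 (r = 0.73).

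For Leo1 the first gene stood apart from the rest: Tmod3, which encodes tropomodulin 3, a cap of actin filaments, had r = 0.92 both over all mice and within groups, while Bace2 and Pomt2 followed at 0.68 and 0.67. Tmod3 lies 2 places after Leo1 among the protein-coding genes of chromosome 9 in the RefSeq order. Its log2 ratios were 0.87, 1.71, 0.62, 2.24 and 0.97 in the vehicle mice and 1.05, 1.68, 0.75 and 1.38 at the low dose. They were 1.37, 0.79, 2.17, 1.64 and 0.62 in medium-dose mice and 1.66, 1.02, 1.49 and 1.56 in high-dose mice. The 10 mice above the empty range in Leo1 had Tmod3 values of 1.37 to 2.24, and the other 8 had 0.62 to 1.05. Tmod3 was well above background on all 18 arrays. Of the other 8 genes measured within 5 places of Leo1 in that order, Gnb5 had an r of 0.64 with Leo1, Tmod2 0.40, Mapk6 -0.24 and Myo5a -0.65, and the remaining 4 had r between -0.30 and 0.07.

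**Figure D4:**
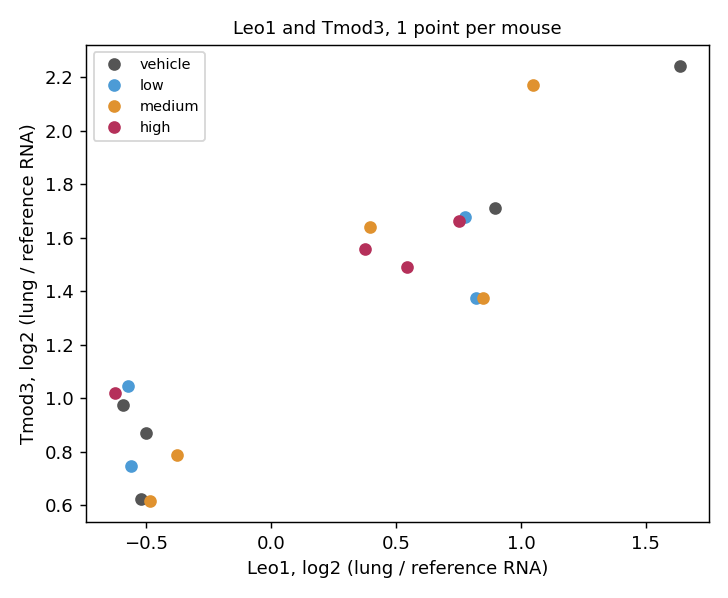
Log2 ratio of lung over reference RNA of Tmod3 (vertical axis) against Leo1 (horizontal axis), 1 point per mouse coloured by group. The mice formed 2 sets, 8 at the lower left and 10 at the upper right, and all 4 groups were in both.

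Genes with roles close to those of the members were mostly not called, by limma or by the residual-shuffling test, which gave the same counts for these lists. Counts at an unadjusted p under 0.05 are limma's. The share of all probes at that limit was not counted for doses against vehicle with loess, so these counts have no array-wide rate beside them. Around Wee1, 0 of 10 genes of G2/M control were called at any dose, with 1, 5 and 0 at an unadjusted p under 0.05 from low to high dose and high-dose log2 fold changes from -0.18 (Pkmyt1, the sister kinase of Wee1) to 0.28 (Ccnb1, a cyclin), and 4 of the 10, Cdk1, Cdc25c, Chek1 and Chek2, were not well above background on every array. Around Nampt, 0 of 14 genes of NAD synthesis and use were called (2, 3 and 3 at an unadjusted p under 0.05), and the largest high-dose values were 0.48 for Nmnat3 (adjusted p = 0.0394) and 0.44 for Cd38 (adjusted p = 0.189). Around Usp2, 0 of 10 other ubiquitin-specific proteases were called (2, 3 and 3 at an unadjusted p under 0.05), though Usp22 was at 0.36 (adjusted p = 0.00375) and Usp10 at -0.26 (adjusted p = 0.0742), both under the fold limit.

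Around Tspan4, 1 of 12 other tetraspanins was called, Tspan18, which was lower at the medium dose (-0.75, adjusted p = 0.00371) and the high dose (-0.60, adjusted p = 0.0222). Of the 12, 1, 4 and 4 had an unadjusted p under 0.05 from low to high dose. Around Dtx4, 0 of 4 other Deltex genes were called (2, 1 and 1 at an unadjusted p under 0.05), and Dtx2 was at -0.21 and Dtx3 at -0.19 at the high dose. Around Lonrf3, 0 of 2 family genes were called (1, 0 and 2 at an unadjusted p under 0.05), Lonrf1 was at 0.51 (adjusted p = 0.0158), opposite in sign to Lonrf3 and under the fold limit, and Lonrf2 was not well above background on any array. Around Leo1, 0 of 5 other PAF1 complex genes were called (0, 1 and 1 at an unadjusted p under 0.05), and Ctr9 was at -0.31 (adjusted p = 0.0334) and Rtf1 at 0.17. Over these 7 lists the median log2 fold change at the high dose lay between -0.09 and 0.37, beside 0.00 over all probes. Median centring of the arrays raised all 7 of these medians, to between 0.12 (the Deltex genes, from -0.09) and 0.40 (the LONRF genes), with 0.25 each for the tetraspanins and the ubiquitin-specific proteases, from 0.01 and 0.05. The G2/M median moved from 0.06 to 0.21 with the scanner software's ratios and to -0.02 with scale normalization.

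In RNA from unsorted lung tissue, fewer cells of a type and less RNA per cell cannot be told apart. The mean log2 ratio of 6 cytotoxic lymphocyte markers ranged from 1.08 to 1.94 in vehicle and from 0.815 to 1.16 in high-dose mice. By limma, 2, 3 and 6 of the 6 had an unadjusted p under 0.05 from low to high dose, with no share of all probes counted beside them. Only 1 of the 6, Gzma, a granule protease, was called, lower at the high dose (-2.25, adjusted p = 0.00208). Cd8a, also 1 of the 6, went the other way from low to high dose (0.23, 0.22 and 0.21), though it was not called. It was the only 1 of the 6 above 0 at each dose. The mean log2 ratio of 4 B cell markers ranged from 0.49 to 1.45 in vehicle and from 1.40 to 1.67 in high-dose mice. Cd79b and Ms4a1, 2 of the 4, were called higher at the medium dose, and 3 of the 4 had an unadjusted p under 0.05 by limma at each dose. Of 8 lung cell markers, Pecam1, an endothelial adhesion molecule, was called higher at the medium and the high dose (0.69 and 0.74), while Cldn5, the other endothelial gene of the list, was at -0.19 at both. The log2 fold changes of the 8 had a median of -0.25 at the medium dose, where 1 was above 0, and of -0.14 at the high dose, where 2 were. None of the 4 neutrophil, 4 red blood cell, 4 cardiomyocyte or 4 adipocyte markers was called by limma or by residual shuffling at any dose, with at most 1 of each 4 at an unadjusted p under 0.05, and the cardiomyocyte mean spread from 0.56 to 3.71 in vehicle mice alone. The part of these markers in the values of the members was not tested.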

How the data were processed

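The authors deposited Agilent scanner output for each two-colour array, from which the median signal intensity of Cy5 (lung) and Cy3 (reference) was taken without background subtraction, after the study's methods. The deposited output also holds a log10 ratio per spot made by the scanner software (Feature Extraction 11.0.1.1 per the file headers), and the authors deposited a table of normalized log2 ratios of the same arrays, whose centring is not given in the sources used here and whose columns correlated at 0.995 or more with the values used here. Both served as alternatives. Log2 ratios were normalized by loess within arrays in R 4.3.3 with limma 3.58.1, with control spots at weight 0 and 215 to 307 outlier spots per array left out, and spots of a probe were averaged. The 4 groups were fitted together by limma's linear model with empirical Bayes, and p-values were adjusted by Benjamini-Hochberg over 55681 probes. MAANOVA was not run; a residual-shuffling test with 100 shuffles stood in for it. Single values were compared by two-sided exact permutation tests, and correlations by 100000 permutations within groups. Nothing in the labels says that more than 1 array came from any mouse. Differences were tested on simulated data first.

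Probes were named through RefSeq accessions (27235 probes named), and a gene was represented by its brightest probe on average over both channels. All members were named with all their probes. Of the lists (clock repressors and PAR bZIP factors, clock activators and Nfil3, other rhythmic output genes, the genes around each member, and markers of lung cells, cytotoxic lymphocytes, B cells, neutrophils, red blood cells, cardiomyocytes and adipocytes), genes called at any dose were named, or in lists around the members with no call the 2 with the largest high-dose change, with the 3 genes most like each member. Cirbp, Cldn5, Cd8a, the neighbours of Leo1, the genes given as not above background and the output genes without a call were chosen for naming once their values were known. The members and lists were chosen with earlier results of these data known. The values of 1 gene among these are not reported here.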

Additional observations from a re-analysis of the deposited data

Results flagged for a closer look

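In the low-dose group, the brighter Lonrf3 probe had 1 mouse, number 6, far from the rest. It stood at 0.30 on the log2 scale, beside -0.24, -0.24 and -0.26 in the other 3, so that the gap to its nearest neighbour was 0.954 of the group's whole range, past the limit of Dixon's ratio for 4 mice. The dimmer Lonrf3 probe was also highest in that mouse among the 4 (-0.60). Of 28 groups of member values examined this way, 1 was marked, and chance alone marks about 5%. Without this mouse, the low-dose log2 fold change of Lonrf3 was -0.47.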

How the results depend on the processing

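Under normexp background correction, the slide as a block, the filter on dim probes, joint adjustment over the 3 doses, residual shuffling and the mean of a gene's probes, the numbers of members called stayed at 1, 2 and 4. Aquantile normalization leaves the ratios as they are by its construction and so tests nothing here. With median centring in place of loess they were 0, 0 and 0, while 3, 32 and 80 probes were called in all beside 50, 404 and 670; the cause was not tested. The low-dose count was also 0 with the scanner software's ratios and with only the compared groups in the fit. The medium-dose count was 1 with the authors' value table, with scale normalization and with Cy5 alone, Wee1 falling under the fold limit. Without the fold limit the counts were 1, 3 and 5, with Lonrf3 added. Leaving out 1 mouse gave 0 to 1, 1 to 2 and 3 to 4 members. Between doses the count stayed at 0 throughout. Wee1 at the low dose had an adjusted p from 0.0119 to 1.000 over the alternatives and was under the fold limit in all but the scanner ratios (0.73, adjusted p = 0.0629).

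Nampt changed sign at the low dose with scanner ratios (-0.0011) and with median centring at the medium (0.10) and high (0.135) dose, and Leo1 at the low dose with median centring (0.0084). Leaving out 1 mouse, Nampt ran from -0.11 to 0.017 at the medium dose, and Leo1 from -0.30 to 0.30, from -0.091 to 0.47 and from -0.12 to 0.44 at the 3 doses.

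The number of member and clock gene pairs past an adjusted p of 0.05 was 0 in the main setting and with normexp. It was 1 with scanner ratios, 3 with the authors' table, 3 with Cy5 alone and 8 with median centring. With slide means removed it was 3, though mice were still shuffled across slides. With median centring, r with Arntl turned positive for Wee1 (0.45), Usp2 (0.63), Nampt (0.56), Tspan4 (0.39) and Lonrf3 (0.59), and r of Dtx4 with Dbp was 0.45; with Cy5 alone, r of Lonrf3 with Arntl was 0.093. Among the members, only the probe of Leo1 was not well above background on every array.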
